A study of Mus musculus with 17 samples.

Results

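The comparison of MSA2 with Control in B cells rests on 6 of the 17 RNA-seq libraries in the series. They were chosen by their titles, 3 as B cells treated with MSA2 and 3 as B cell Control. MSA2 is a small molecule, active by mouth, that switches on the innate immune protein STING. A further 3 B cell libraries, with MSA2 and the PI3Kγ inhibitor IPI-549 together (the combination), stand in the same table and are given beside them. No B cells with IPI-549 alone were analysed here. The other libraries, of dendritic cells, were not used here.

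All 9 B cell libraries are labelled as lymphocytes of mouse spleen, with the genotype given as WT. The series description names KPC mice, a model of pancreatic cancer, so the label and the description differ. The treatment label reads Control for every library, and the titles alone give the groups. The 3 libraries titled MSA2 stand apart from the other 6 by high levels of T cell, NK cell, myeloid and erythroid transcripts. The labels hold nothing else by which the titles could be checked, so the assignment of the groups has no independent check and is in doubt. The labels give no dose, time, age or sex, and describe no step that isolated the B cells. Nothing in them ties replicates to separate mice, so p-values may measure technical spread only. The library numbers in the labels are 8, 11 and 12 for MSA2, 2, 5 and 6 for the combination and 1, 3 and 4 for Control. All MSA2 numbers come after the others, so that any step that followed this order cannot be told apart from MSA2.

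STING sits on the endoplasmic reticulum and is normally activated by cyclic GMP-AMP, a messenger that the enzyme cGAS makes when it meets DNA in the cytosol. It recruits the kinase TBK1, which activates the transcription factor IRF3 and NF-κB, so that type I interferons and inflammatory cytokines are made. Interferon then acts through its receptor and a complex of transcription factors on a wide set of interferon-stimulated genes. B cells carry this pathway, and a subset of them, regulatory B cells, secretes IL-10 and other inhibitory cytokines.

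Expected counts per library summed to between 41090638 and 51429550. Levels are CPM, counts scaled to a common library total. A fold change is the log2 of MSA2 over Control with its standard error (SE), and its adjusted p comes from edgeR (quasi-likelihood, Benjamini-Hochberg over all genes tested). A gene was called where that p was under 0.05, and only called genes are said to have risen or fallen. Counts of an eGFP transgene row stood in every library (61.3 to 100 CPM with MSA2, 77.7 to 113 CPM in the combination and 69.1 to 80.3 CPM in Control), while the labels name no reporter, and a cre row had none. Of 16194 genes tested, 4022 were higher (24.8%) and 2992 lower (18.5%) with MSA2, so that 43.3% of all genes were called, and the median log2 fold change was -0.01. Counts of list members that rose or fell are to be read against these shares.

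The label of B cells was first set against lineage markers. All 12 B cell identity genes were abundant in every library, and all 12 fell with MSA2, by a median log2 fold change of -1.0. Cd79a, which encodes a signalling chain of the B cell receptor, had 976, 749 and 1035 CPM in the MSA2 libraries, against 1875, 1836 and 2072 CPM in the Control libraries (-1.07 ± 0.12 SE, edgeR adjusted p = 3.41e-05). Ms4a1, the gene of the surface protein CD20, had 733, 613 and 739 CPM with MSA2, against 1468, 1377 and 1513 CPM in Control (-1.06 ± 0.10 SE, edgeR adjusted p = 5.84e-06). MSA2 and Control did not overlap for any of the 12, and the share of all genes without overlap was not counted here. The smallest fall was that of the inhibitory receptor gene Cd22 (-0.63 ± 0.09 SE) and the largest that of Vpreb3, which acts in receptor assembly (-1.32 ± 0.10 SE). The 12 genes summed to 4148 to 4631 CPM with MSA2, 8371 to 8974 CPM in the combination and 8382 to 8854 CPM in Control. In bulk libraries fewer cells of a type and less RNA per cell cannot be told apart.

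Markers of other spleen cells were high in the MSA2 libraries. All 18 T cell genes rose, and their summed level was 1782 to 2240 CPM with MSA2, 10.1 to 11.1 CPM in the combination and 15.5 to 56.5 CPM in Control. Trbc2, a constant segment of the T cell receptor, had 165, 109 and 182 CPM with MSA2, 0, 0 and 0.022 CPM in the combination and 3.02, 1.03 and 0.135 CPM in Control (6.73 ± 0.55 SE, edgeR adjusted p = 2.09e-06). The gene segments of the T cell receptor, which T cells make, summed to 500, 368 and 545 CPM with MSA2 and to 12.01, 5.226 and 1.98 CPM in Control. Within Control the T cell and neutrophil sums were highest in replicate 1, but no Control library reached any MSA2 library. No T cell list gene was at 0 in all Control libraries.

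The lists of NK cells, monocytes and macrophages, neutrophils and mast cells moved the same way. All 12 NK cell genes rose (summed level 630 to 728 CPM with MSA2 and 19.0 to 28.4 CPM in Control), as did all 18 of monocytes and macrophages (2088 to 2424 CPM and 143 to 182 CPM). All 15 neutrophil genes rose (1776 to 1858 CPM and 3.26 to 37.3 CPM), and so did all 11 tested genes of mast cells, basophils and eosinophils (53.3 to 56.2 CPM and 2.38 to 2.78 CPM). Median log2 fold changes were 6.47 for T cells, 6.27 for NK cells, 5.49 for monocytes and macrophages, 7.26 for neutrophils and 5.93 for the mast cell list. Elane, a neutrophil elastase, and 2 genes of the mast cell list, among them the protease Cpa3, had no counts in Control. With such genes at the bound set by 3 counts over the group these medians were 7.17 for neutrophils and 5.93 for the mast cell list. The part of these cells in the fall of the B cell genes was not tested. In the lineage lists, genes at or near 0 in Control and the combination passed the filter only through the MSA2 libraries. The rise of such genes, among them Elane, Ly6g, Cpa3, Mcpt8 and Prss34, was thus fixed in advance.

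Among genes outside those B cells express, the largest rises by the rule for named genes were mostly in genes of neutrophils and their precursors. Mpo, the granule enzyme myeloperoxidase, had 12.7, 13.2 and 11.7 CPM with MSA2, 0, 0.0229 and 0 CPM in the combination and 0.040, 0.0219 and 0.045 CPM in Control. Ltf, the granule protein lactoferrin, had 168, 204 and 216 CPM with MSA2, against 1.80, 0.394 and 0.0675 CPM in Control (7.97 ± 0.52 SE, edgeR adjusted p = 3.55e-07). The others were Cd177, Slfn4, Mmp9 and C5ar1, with log2 fold changes of 7.39 to 8.05. The rule asks for no overlap between MSA2 and Control, so the full separation of all 6 was fixed by it. Mpo and Ltf are granule genes of the stages in bone marrow, and C5ar1 is a receptor of mature neutrophils and macrophages.

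**Figure D1:**
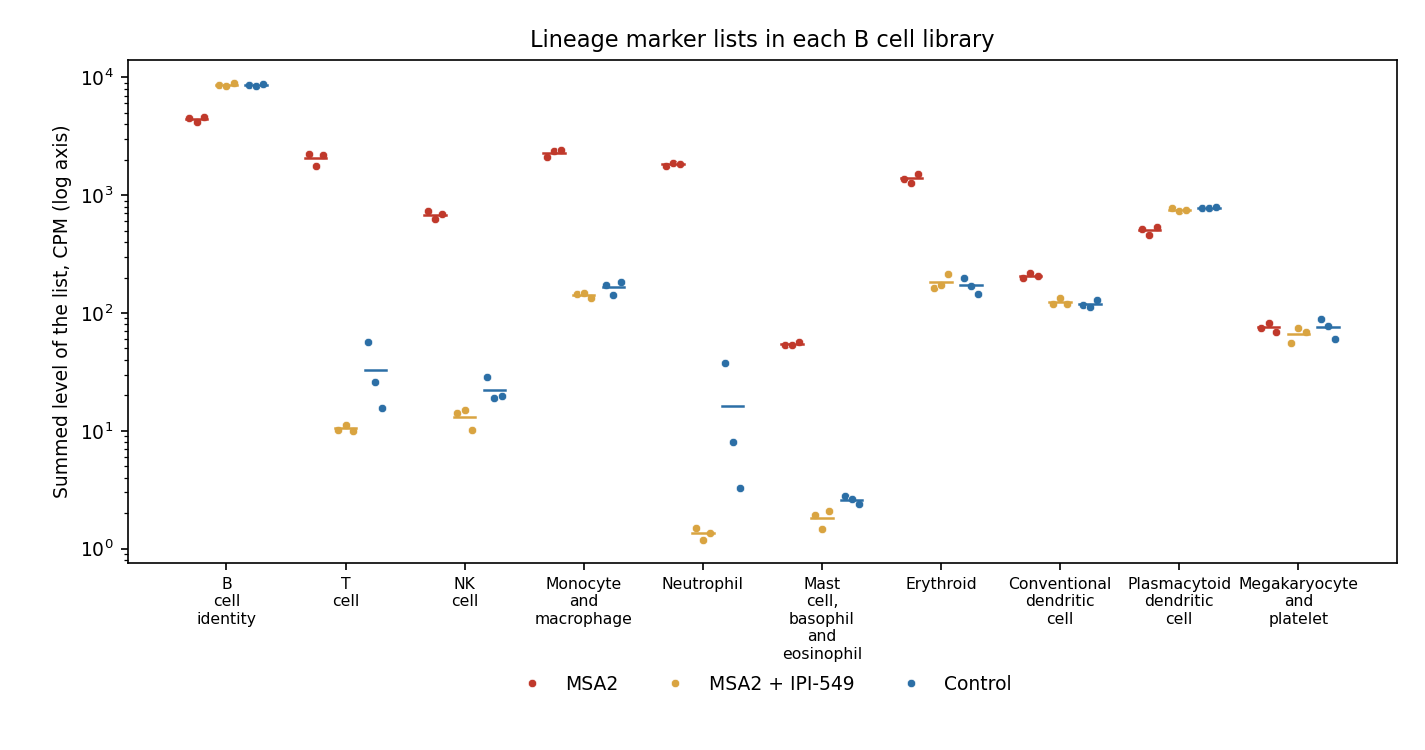
Summed level of each lineage marker list in each of the 9 B cell libraries, in CPM on a log axis; points are libraries and short lines group means. The T cell, NK cell, myeloid, mast cell, erythroid and conventional dendritic cell sums of the MSA2 libraries lie above every other library. Their B cell and plasmacytoid dendritic cell sums lie below every other library, and the megakaryocyte and platelet sums overlap.

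Red cell precursors were part of the same pattern, and platelets were not. Of 13 erythroid genes tested 12 rose (median log2 fold change 4.73). The beta globin gene Hbb-bs had 470, 412 and 514 CPM with MSA2, against 16.7, 10.4 and 5.01 CPM in Control (5.44 ± 0.37 SE, edgeR adjusted p = 4.09e-07). Of 12 megakaryocyte and platelet genes only 2 were called, both higher, and the median was 0.15. Pf4, platelet factor 4, had 1.78, 2.21 and 2.52 CPM with MSA2, against 2.44, 2.03 and 1.55 CPM in Control (0.11 ± 0.23 SE, edgeR adjusted p = 0.740). The summed level of that list was 68.7 to 82.3 CPM with MSA2 and 60.6 to 89.4 CPM in Control. The 2 called were Clec1b (1.15 ± 0.28 SE) and F2rl2 (1.35 ± 0.27 SE), a platelet lectin receptor and a thrombin receptor.

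Dendritic cell lists moved less evenly. Of 12 conventional dendritic cell genes 9 rose and 3 had no call (median 1.46). Of 12 plasmacytoid dendritic cell genes 9 rose and 2 fell. Their summed level was nevertheless lower, 461 to 541 CPM with MSA2 against 773 to 790 CPM in Control. Siglech, a receptor of plasmacytoid dendritic cells, had 9.32, 10.8 and 11.01 CPM with MSA2, against 0.16, 0.0437 and 0.135 CPM in Control (6.48 ± 0.34 SE, edgeR adjusted p = 6.80e-08). The members that fell, Tcf4 and Ly6d, are also expressed by B cells (-0.29 ± 0.07 SE and -1.19 ± 0.11 SE). Blood progenitor genes rose in 8 of 10 tested. The filter fixed the direction of some of these in advance, such as Ctsg and Ms4a3, which were at or near 0 outside the MSA2 libraries. Stab2, a scavenger receptor of sinus endothelium, had 11.7, 14.2 and 14.5 CPM with MSA2, against 0.46, 0.372 and 0.36 CPM in Control (5.07 ± 0.29 SE). Of the endothelial list 4 of 6 rose and 1 fell, of the stromal list 5 of 7 rose (3 without MSA2 replicate 1 or Control replicate 2), and of the epithelial and pancreatic list 3 of 5 rose and 1 fell. The falls of the endothelial Pecam1 and the epithelial Muc1 lost their call without single libraries, with adjusted p of up to 0.114 and 0.0588.

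The genes were then divided by whether B cells can express them. A gene was placed in that class where its mean was at least 5 CPM over the 3 combination libraries, which are in neither group of the contrast, and where it was on no list of another lineage and no T cell receptor segment. At the edge of the rule Adam8 lay just inside (5.004 CPM) and Alkbh4 just outside (under 5 CPM). Genes outside the class took up 3.18, 3.61 and 3.15% of the counts with MSA2, 0.949, 0.948 and 0.885% in the combination and 1.02, 0.98 and 0.969% in Control. The class held 9277 tested genes. Of these 1520 were higher (16.4%) and 2608 lower (28.1%) with MSA2, with a median of -0.09. Of the 6917 other genes 2502 were higher (36.2%) and 384 lower (5.55%), with a median of 0.33. More than 4-fold higher were 94 genes of the class and 1656 of the others. A gene near 0 in Control and the combination was tested only where its MSA2 counts passed the filter. The filter and the class rule thus fixed part of the excess of rises among the others in advance. More than 4-fold lower were 3 of the class and 19 of the others. The 3, chosen here after their values were seen, were B3gnt7, Exosc6 and the unnamed gene Gm20431, which had no count with MSA2 and none in Control replicate 2.

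The class still holds genes that other white blood cells express strongly. Thbs1, Emb, Ccl5, Il1b and Ctla4 are in it, since the combination libraries had 5 CPM or more of each. The part that other cell types take in the rise of such genes was not tested.

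**Figure D2:**
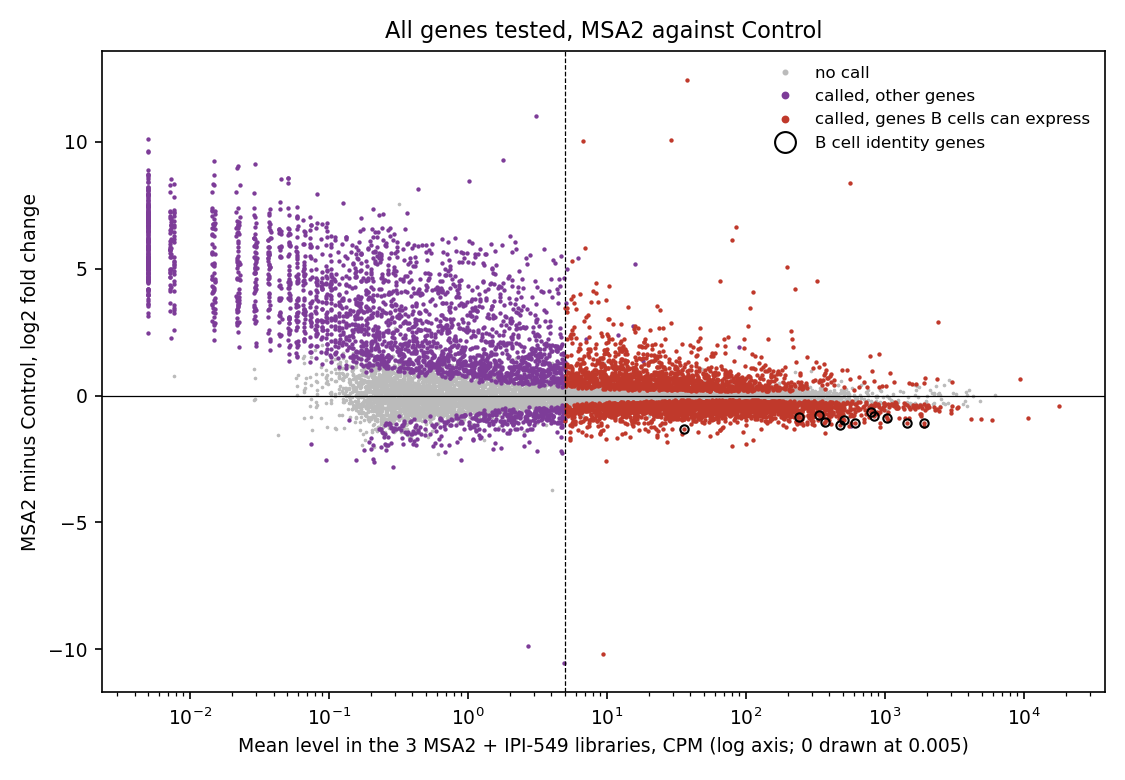
Log2 fold change of each of the 16194 genes, MSA2 over Control, against its mean level in the combination libraries in CPM (log axis); the dashed line is the 5 CPM limit of genes B cells can express. Called genes left of the line are mostly higher with MSA2, called genes right of it are more often lower, and the 12 B cell identity genes lie between -0.63 and -1.32. Fitted values of genes with no counts in 1 group depend on the prior count.

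Among genes B cells can express, the largest rises by the rule were Ifna1, Ifna4, Ifit1, Cxcl10, Ifit3b, Thbs1, Ifit3, Ccrl2, Ifit2 and Emb. Of these, 8 were also above Control in the combination libraries, in which the T cell, NK cell, neutrophil and mast cell sums lay below every Control library. Since the class asks for 5 CPM in the combination, and 6 of the 8 had under 5 CPM in Control, the class itself fixed that order for those 6. Ifit1, an antiviral protein that binds viral RNA, had 695, 432 and 586 CPM with MSA2, 595, 633 and 460 CPM in the combination and 1.94, 1.31 and 1.82 CPM in Control (8.39 ± 0.25 SE, edgeR adjusted p = 2.51e-09). Ccrl2, a chemerin-binding receptor encoded at chr9:111054486-111057519 on the minus strand (GRCm38), had 90.7, 98.7 and 74.3 CPM with MSA2, 70.8, 69.2 and 54.8 CPM in the combination and 3.46, 3.37 and 4.61 CPM in Control (4.53 ± 0.17 SE, edgeR adjusted p = 6.17e-09). Both groups with MSA2 lay far above every Control library. The rule asks for no overlap between MSA2 and Control, so it fixed that separation for all genes it named here. Cxcl10, a chemokine that draws T cells, had 228, 162 and 212 CPM with MSA2, 91.2, 89.3 and 72.8 CPM in the combination and 2.26, 1.49 and 2.34 CPM in Control.

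Thbs1 and Emb, at chr2:118111876-118127133 and chr13:117208536-117274415 on the plus strand (GRCm38), took the other course. Thbs1, the matrix protein thrombospondin 1, had 243, 321 and 132 CPM with MSA2, 4.26, 6.05 and 6.47 CPM in the combination and 8.01, 4.77 and 4.59 CPM in Control (5.32 ± 0.35 SE, edgeR adjusted p = 3.55e-07). Emb, the adhesion protein embigin, had 283, 224 and 269 CPM with MSA2, 9.39, 9.26 and 6.45 CPM in the combination and 15.0, 11.8 and 9.49 CPM in Control (4.42 ± 0.19 SE, edgeR adjusted p = 1.84e-08). For both, the combination libraries lay near or below Control while the MSA2 libraries stood apart. The 2 contrasts share the Control libraries, and their difference was not tested here.

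Of 38 interferon-stimulated genes 29 rose, 0 fell and 9 had no call, with a median log2 fold change of 0.85. Without MSA2 replicate 3, 1 of them fell. Isg15, a ubiquitin-like modifier, had 261, 181 and 292 CPM with MSA2, 242, 246 and 186 CPM in the combination and 12.2, 13.8 and 13.8 CPM in Control (4.20 ± 0.19 SE, edgeR adjusted p = 2.09e-08). Rsad2, the antiviral enzyme viperin, had 48.9, 51.1 and 33.2 CPM with MSA2, against 7.77, 6.45 and 6.75 CPM in Control (2.67 ± 0.30 SE, edgeR adjusted p = 3.08e-05). The list was uneven. Irf7, which amplifies interferon production, rose by 1.29 ± 0.12 SE, whereas Stat2 (0.07 ± 0.11 SE, edgeR adjusted p = 0.673) and Irf9 (-0.04 ± 0.08 SE, edgeR adjusted p = 0.724), parts of the interferon-activated complex, had no call. Reads of Ifit3 and its near copy Ifit3b can be split between them, so each single value is uncertain.

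The DNA just upstream of some of these genes holds the letters through which interferon factors are known to act. The stretches of Ifit1, Isg15 and Cxcl10 are shown because the genes were higher in every MSA2 library than in any Control library, and they were chosen because they hold the core of the interferon-stimulated response element, which is GAAA, any 2 bases and GAAA again. Each runs 5′ to 3′ along the gene's strand from 10 bases before the first match to the last base before the transcript start, from RefSeq promoter windows on GRCm38.p6. Capitals mark the matches, which on the opposite strand read TTTC, any 2 bases and TTTC.
Ifit1, chr19:34640775-34640888, plus strand: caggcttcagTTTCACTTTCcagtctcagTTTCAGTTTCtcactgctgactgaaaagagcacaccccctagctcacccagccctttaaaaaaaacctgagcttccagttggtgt
Isg15, chr4:156200819-156200906, minus strand: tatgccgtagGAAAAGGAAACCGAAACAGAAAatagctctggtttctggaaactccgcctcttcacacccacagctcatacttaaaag
Cxcl10, chr5:92348890-92349112, minus strand: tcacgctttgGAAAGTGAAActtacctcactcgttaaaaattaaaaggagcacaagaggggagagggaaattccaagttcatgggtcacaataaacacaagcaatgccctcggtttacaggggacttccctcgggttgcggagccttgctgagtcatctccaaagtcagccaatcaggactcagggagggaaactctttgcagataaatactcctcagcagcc
In Ifit1 the matches begin 104 and 85 bases before the start, in Isg15 3 overlapping ones begin 78, 72 and 66 bases before it, and in Cxcl10 1 begins 213 bases before it. Of 27025 genes with such a window (250 bases before to 50 after the start) 1079 hold the core on either strand (3.99%). Windows were on hand for 28 of the 38 interferon-stimulated genes, under 80%, so no share over the list is given. The windows of Ifit2 and Irf7, which also rose, hold no match. A match is a description of the letters and no evidence of binding.

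The alpha and beta interferon genes themselves were at or near 0 in Control. Ifna1 had 2059 counts over the 3 MSA2 libraries, 5128 over the combination and 0 over Control. It was at least 709-fold higher with MSA2 when Control is set to 3 counts over the group. Its levels were 18.3, 12.4 and 14.7 CPM with MSA2 and 43.2, 41.7 and 28.9 CPM in the combination. Ifnb1, the gene of interferon beta, had 0.978, 0.722 and 1.18 CPM with MSA2, 1.23, 1.53 and 0.286 CPM in the combination and no count in Control, at least 44.8-fold higher. Of 20 interferon genes listed 11 were tested, and all 11 rose, 7 under a stricter filter on low counts. Of the 11 tested, 9 had no count in Control and passed the filter only through libraries with MSA2. The direction of those 9 was thus fixed in advance. Alpha interferon genes are near copies of each other that can take each other's reads, so each single value is uncertain. Ifng, the gene of interferon gamma, which T and NK cells mainly make, had 30.9, 24.6 and 49.1 CPM with MSA2, 5.50, 4.61 and 1.85 CPM in the combination and 1.42, 1.71 and 1.17 CPM in Control (4.602 ± 0.39 SE, edgeR adjusted p = 2.78e-06).

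**Figure D3:**
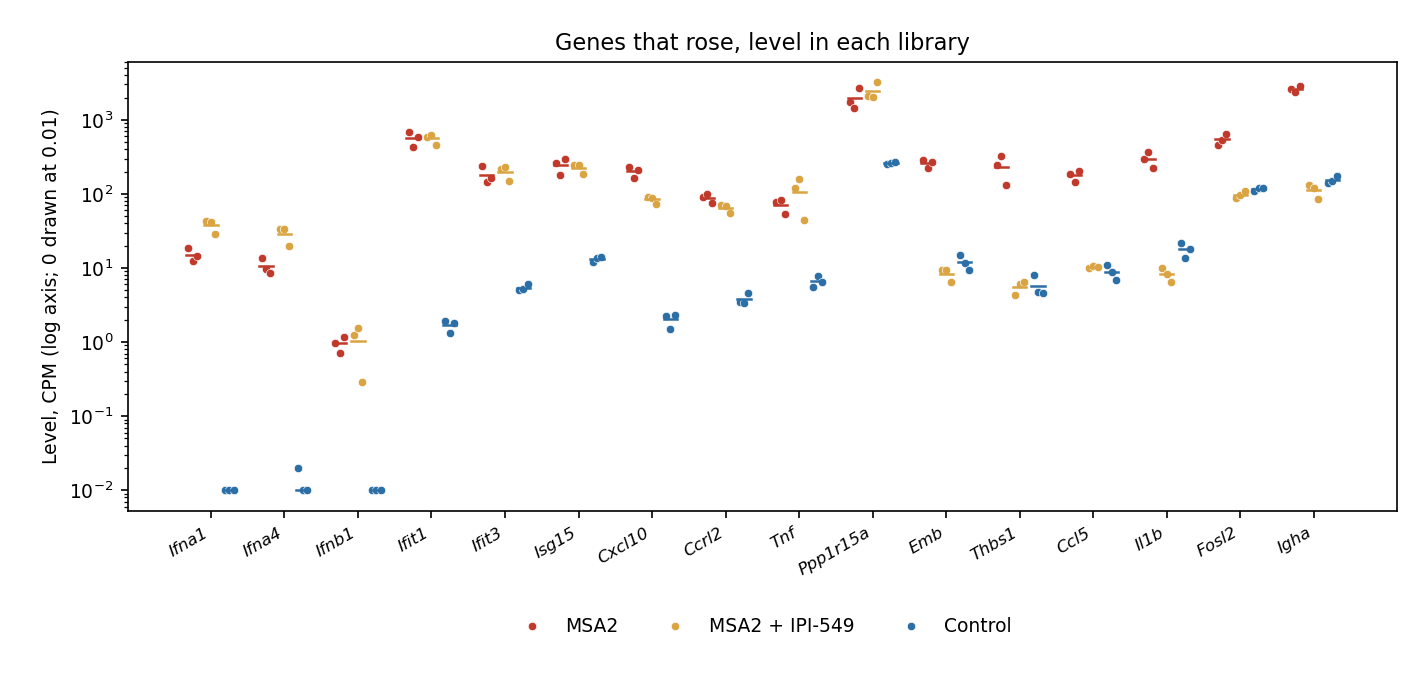
Level of genes that rose with MSA2 in each of the 9 B cell libraries, in CPM on a log axis, with zeros drawn at 0.01; points are libraries and short lines group means. For the interferon genes, Ifit1, Ifit3, Isg15, Cxcl10, Ccrl2, Tnf and Ppp1r15a the combination libraries lie above Control as well, while for Emb, Thbs1, Ccl5, Il1b, Fosl2 and Igha they lie near Control or below it.

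Of 23 cytokine and chemokine genes 19 rose and 2 fell (median 1.54), and without MSA2 replicate 1 only 1 fell. Tnf, a main inflammatory cytokine, had 76.6, 83.8 and 53.4 CPM with MSA2, 118, 160 and 43.8 CPM in the combination and 5.54, 7.85 and 6.38 CPM in Control (3.44 ± 0.40 SE, edgeR adjusted p = 3.80e-05). Il1b, which monocytes and neutrophils make in quantity, had 298, 370 and 223 CPM with MSA2, 10.1, 8.27 and 6.56 CPM in the combination and 21.7, 13.5 and 18.1 CPM in Control (4.06 ± 0.23 SE, edgeR adjusted p = 1.26e-07). The combination libraries were thus above Control for Tnf and below it for Il1b. Il10, the cytokine by which regulatory B cells are defined, had 16.02, 13.7 and 13.99 CPM with MSA2, 4.29, 4.24 and 0.903 CPM in the combination and 2.72, 2.38 and 3.08 CPM in Control (2.42 ± 0.39 SE, edgeR adjusted p = 0.000468). It was under 5 CPM in the combination and so falls outside the class of genes B cells can express, although B cells can make it. Macrophages and T cells also make IL-10, and their lists summed to 2088 to 2424 CPM and 1782 to 2240 CPM in the same libraries. Which cells the rise of Il10 came from was not tested. Of the subunits of the inhibitory cytokine IL-35, Ebi3 rose (0.50 ± 0.13 SE, edgeR adjusted p = 0.0108) and Il12a fell (-1.01 ± 0.19 SE, edgeR adjusted p = 0.00118).

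Some genes of antibody-secreting cells rose and others fell. Igha, the constant region of IgA, had 2603, 2342 and 2891 CPM with MSA2, 131, 119 and 85.8 CPM in the combination and 141, 148 and 172 CPM in Control (4.08 ± 0.17 SE, edgeR adjusted p = 1.40e-08). Jchain, which joins IgA and IgM units, had 1392, 1099 and 1545 CPM with MSA2, against 254, 273 and 340 CPM in Control (2.22 ± 0.17 SE, edgeR adjusted p = 1.40e-06). Of 12 immunoglobulin constant region genes, a list added after the files were seen, 7 rose, 3 fell and 2 had no call. All 4 tested IgG genes were among the 7, with Ighg2c at 2.21 ± 0.17 SE. Ighm, the constant region of IgM, had 4079, 3870 and 4489 CPM with MSA2, against 4020, 3992 and 4506 CPM in Control (-0.01 ± 0.11 SE, edgeR adjusted p = 0.954). Ighd, the IgD of resting mature B cells, fell (-0.89 ± 0.10 SE, edgeR adjusted p = 2.78e-05), and so did the lambda genes Iglc2 and Iglc3. Reads of near-identical constant regions can be split among them, so single values are uncertain.

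Of 12 plasmablast genes 6 rose, 3 fell and 3 had no call (median 0.27). Prdm1, which encodes the plasma cell regulator Blimp-1, had 28.8, 31.7 and 25.1 CPM with MSA2, against 15.3, 11.5 and 15.2 CPM in Control (1.03 ± 0.14 SE, edgeR adjusted p = 0.000120). Xbp1, a factor of the secretory machinery, rose by 0.76 ± 0.08 SE. T cells and myeloid cells express Prdm1 too, and their part in its rise was not tested. Tnfrsf17, the plasma cell receptor BCMA, rose at low levels, with 2.52, 2.56 and 3.54 CPM with MSA2, against 0.0799, 0.197 and 0.337 CPM in Control (3.82 ± 0.44 SE). Irf4, which plasma cells and activated B cells share, fell (-0.74 ± 0.14 SE, edgeR adjusted p = 0.00125), and Sdc1, the plasma cell surface marker, had no call (-0.26 ± 0.16 SE, edgeR adjusted p = 0.234).

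Among mature B cell subsets most genes fell. In the follicular list 10 of 12 fell and 0 rose (median -0.67), in the germinal centre list 8 of 12 fell and 1 rose (median -0.64), and in the marginal zone and B-1 list 7 of 12 fell and 3 rose (median -0.44). Fcer2a, the IgE receptor CD23 of follicular B cells, had 243, 216 and 243 CPM with MSA2, against 461, 477 and 524 CPM in Control (-1.06 ± 0.09 SE, edgeR adjusted p = 2.07e-06). The germinal centre gene that rose was the death receptor Fas (0.68 ± 0.16 SE, edgeR adjusted p = 0.00482). Without Control replicate 3, 2 of its members rose. The marginal zone and B-1 genes that rose were Cd9 (0.89 ± 0.07 SE), Zbtb32 (1.93 ± 0.18 SE) and Cd5 (4.798 ± 0.20 SE). Cd5 marks B-1 cells and nearly all T cells, and its 83.2, 72.2 and 84.8 CPM with MSA2 stood against 3.30, 3.24 and 2.07 CPM in Control. The T cell list was high in the same 3 libraries, and which cells the rise of Cd5 came from was not tested.

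Of 16 B cell receptor signalling genes 14 fell and 0 rose (median -0.51). Btk, a kinase without which B cells do not mature, had 90.1, 97.4 and 92.0 CPM with MSA2, against 153, 165 and 167 CPM in Control (-0.80 ± 0.07 SE, edgeR adjusted p = 2.96e-06). Cd81 and Inpp5d had no call. All 13 MHC class II genes fell (median -0.95). H2-Aa, a class II chain that presents peptides to helper T cells, had 3090, 2552 and 3217 CPM with MSA2, against 5869, 5685 and 5939 CPM in Control (-0.98 ± 0.11 SE, edgeR adjusted p = 3.65e-05). Ctss, a protease of antigen processing, fell least (-0.28 ± 0.10 SE, edgeR adjusted p = 0.0400).

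**Figure D4:**
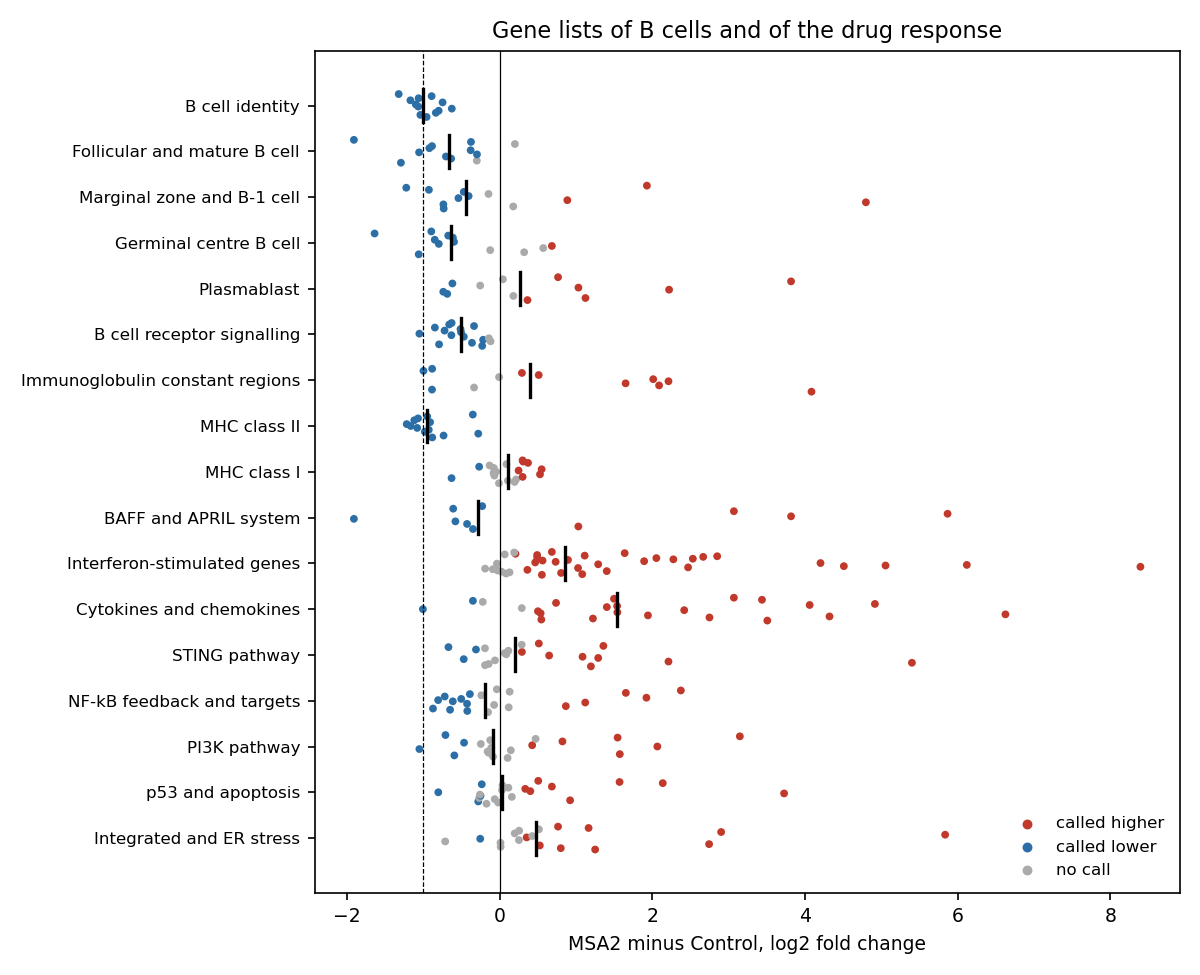
Log2 fold change of each tested gene of 17 lists, MSA2 over Control; red points were called higher, blue lower and grey not called, thick bars are list medians and the dashed line is the B cell identity median of -1.0. The MHC class II median of -0.95 lies at that line, and the medians of interferon-stimulated genes (0.85) and cytokines (1.54) lie to the right of 0.

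To read each gene against the B cell genes themselves, the test was rerun with library factors that set the 12 identity genes equal on average. These factors moved the median of all genes tested to 0.97, so that 13696 of 16182 genes were higher (84.6%) and 47 were lower (0.29%, 84.9% called in all). The fit says how a gene moved relative to the identity genes, whatever moved those. On that scale the MHC class II median was 0.02, with 3 genes higher, 1 lower and 9 not called, and the B cell receptor signalling median was 0.46, with 13 of 16 higher. The follicular median was 0.30 and the germinal centre median 0.33. The MHC class II median thus lay near the identity genes, while the share of B cell receptor signalling genes that were higher was near that of all genes. All 38 interferon-stimulated genes were higher on that scale (median 1.83). Il12a and Irf4, which fell in the main fit, had no call on it (-0.03 ± 0.20 SE, edgeR adjusted p = 0.892, and 0.24 ± 0.16 SE, edgeR adjusted p = 0.168).

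Of the 47 genes that fell more than the B cell genes, 28 were genes B cells can express (73 of 112 with factors from the follicular list instead). That class made up 9265 of the 16182 genes tested on this scale, so the 28 are near its share. One of the 28 was Tnfrsf13c. The gene, on the minus strand at chr15:82221743-82224369 (GRCm38), encodes the BAFF receptor, through which mature B cells receive their survival signal. It had 37.5, 36.2 and 41.2 CPM with MSA2, 99.6, 112 and 89.4 CPM in the combination and 123, 161 and 148 CPM in Control. The log2 fold change was -1.91 ± 0.12 SE (edgeR adjusted p = 1.92e-07), and relative to the identity genes it was -0.94 ± 0.12 SE (edgeR adjusted p = 2.90e-05). Every MSA2 library was below every other library, and the rule for the largest falls asks for no overlap with Control. Rgs13, a regulator of G protein signalling in germinal centre B cells, had 11.3, 7.48 and 8.63 CPM with MSA2, 26.3, 24.5 and 18.2 CPM in the combination and 30.1, 24.8 and 30.5 CPM in Control (relative to the identity genes -0.67 ± 0.17 SE, edgeR adjusted p = 0.00364).

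Other genes with the largest falls by the rule were less even between libraries. B3gnt7, which extends sugar chains on glycoproteins, had 49.9, 50.9 and 20.4 CPM with MSA2, 91.9, 97.95 and 47.9 CPM in the combination and 161, 169 and 156 CPM in Control (-2.01 ± 0.33 SE, edgeR adjusted p = 0.000461). Replicate 3 was the lowest of its group in both MSA2 and the combination for B3gnt7, and also for Crb3, Cystm1, Fam167a, Dusp18 and Zfp870. Fam167a had 48.8, 51.7 and 31.4 CPM with MSA2, against 144, 144 and 151 CPM in Control (-1.74 ± 0.21 SE, edgeR adjusted p = 4.85e-05). Relative to the identity genes, Crb3, a polarity protein gene, lost its call without MSA2 replicate 3 (adjusted p = 0.0559), Cystm1 without 1 of 3 libraries (up to 0.0710) and Zfp870 without any of 5 (up to 0.130). Exosc6, a subunit of the RNA exosome, had 2.46, 0 and 2.86 CPM with MSA2, against 11.7, 14.04 and 6.18 CPM in Control (-2.59 ± 0.68 SE, edgeR adjusted p = 0.00974), and DESeq2 gave an adjusted p of 0.102.

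**Figure D5:**
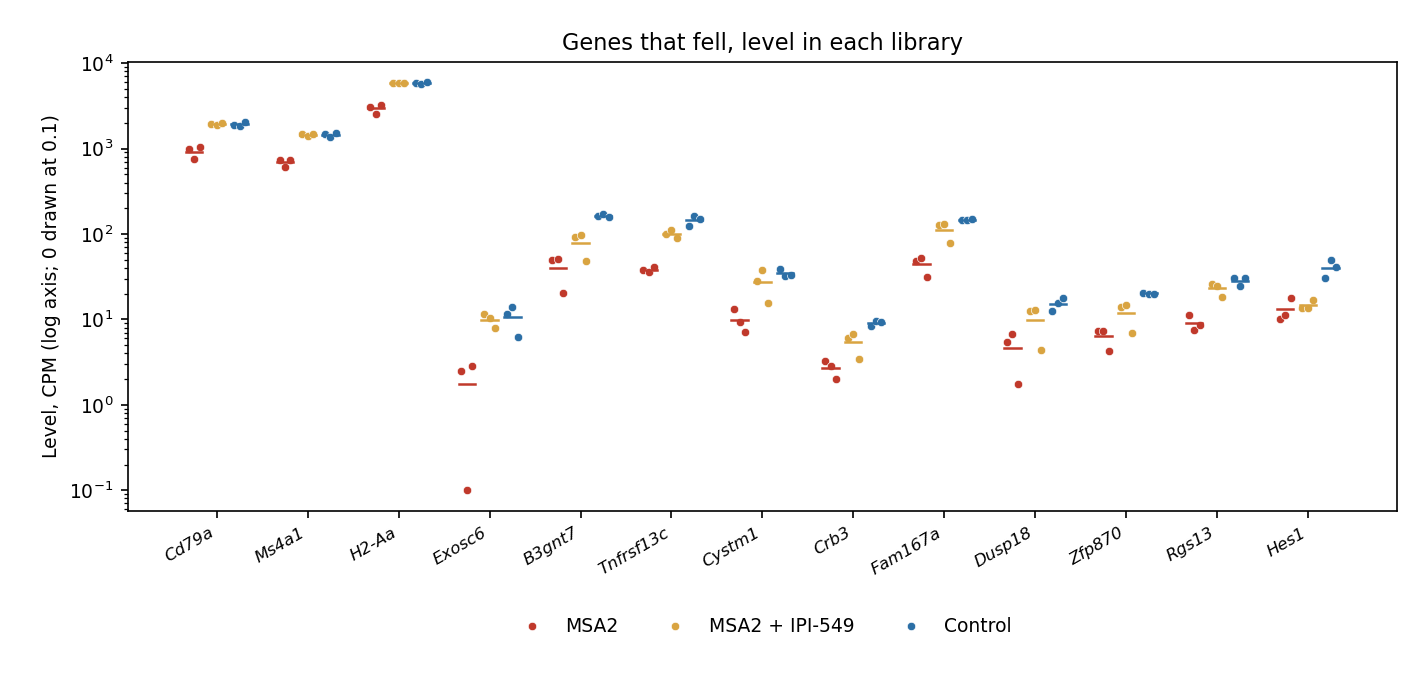
Level of genes that fell with MSA2 in each of the 9 B cell libraries, in CPM on a log axis, with the zero of Exosc6 drawn at 0.1; points are libraries and short lines group means. For Cd79a, Ms4a1 and H2-Aa the combination libraries lie at the Control level, for B3gnt7, Crb3 and Zfp870 their mean lies between the other groups, and for Hes1 they lie near the MSA2 level.

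Hes1, a target of Notch signalling, had 10.1, 11.2 and 18.0 CPM with MSA2, 13.6, 13.4 and 16.9 CPM in the combination and 30.3, 49.5 and 41.2 CPM in Control (-1.62 ± 0.23 SE, edgeR adjusted p = 0.000141). The combination libraries lay near the MSA2 libraries, and all of them were below Control, which the rule had asked of the MSA2 libraries. Relative to the identity genes its call was lost without 1 of 3 libraries (adjusted p up to 0.0715). In the BAFF and APRIL system 6 of 10 genes fell and 4 rose. Tnfrsf13b, the receptor TACI, fell by less than the identity genes (-0.58 ± 0.09 SE, and relative to those genes 0.39 ± 0.07 SE with an edgeR adjusted p of 0.000550). The ligand genes Tnfsf13 (5.87 ± 0.47 SE) and Tnfsf13b (3.07 ± 0.33 SE), which encode APRIL and BAFF and which myeloid cells mainly make, rose at low levels. Tnfsf13b had 1.11, 1.40 and 1.48 CPM with MSA2, against 0.220, 0.131 and 0.112 CPM in Control. The monocyte and macrophage list was high in the MSA2 libraries, and its part in the rise of both ligand genes was not tested.

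Of 20 STING pathway genes 9 rose, 3 fell and 8 had no call (median 0.20), against 24.8% higher and 18.5% lower of all genes. Sting1 itself had 38.8, 36.4 and 43.4 CPM with MSA2, against 35.3, 35.7 and 38.7 CPM in Control (0.11 ± 0.09 SE, edgeR adjusted p = 0.332). Tbk1 (-0.19 ± 0.12 SE) and Irf3 (-0.06 ± 0.09 SE) had no call either. Ikbke, a kinase related to TBK1, had 53.4, 50.3 and 53.9 CPM with MSA2, 9.31, 10.7 and 10.99 CPM in the combination and 11.3, 11.7 and 10.9 CPM in Control (2.21 ± 0.09 SE, edgeR adjusted p = 8.50e-09). Trex1, which degrades cytosolic DNA, had 61.2, 52.9 and 84.7 CPM with MSA2, 78.6, 75.3 and 93.2 CPM in the combination and 28.6, 22.96 and 26.01 CPM in Control (1.36 ± 0.16 SE, edgeR adjusted p = 4.24e-05). The combination libraries were thus at the Control level for Ikbke and above it for Trex1. Ifi204, a DNA sensor of the myeloid lineage, rose most (5.40 ± 0.21 SE).

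The NF-κB list was divided. Of 20 genes 5 rose, 9 fell and 6 had no call (median -0.20). Tnfaip3, which encodes the inhibitor A20, had 1056, 1039 and 1051 CPM with MSA2, 877, 865 and 972 CPM in the combination and 320, 331 and 350 CPM in Control (1.65 ± 0.08 SE, edgeR adjusted p = 5.26e-08). Nfkbiz (1.92 ± 0.09 SE) and Nfkbia (1.12 ± 0.24 SE), further inhibitors or modifiers of the pathway, rose too. Rel, the NF-κB subunit c-Rel, had 1046, 1237 and 909 CPM with MSA2, against 1803, 1756 and 1700 CPM in Control (-0.72 ± 0.11 SE, edgeR adjusted p = 0.000344). Cd83, a surface protein of activated B cells, fell (-0.87 ± 0.15 SE). Relative to the identity genes 17 of the 20 were higher and 0 lower, a share near the 84.6% of all genes on that scale.

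Of 19 MHC class I genes 7 rose, 2 fell and 10 had no call (median 0.11), against 24.8% higher and 18.5% lower of all genes. Nlrc5, which switches on class I genes, rose by 0.55 ± 0.09 SE and H2-Q7 by 0.53 ± 0.08 SE, while B2m, H2-K1 and H2-D1 had no call. H2-M3 fell (-0.63 ± 0.07 SE), and the fall of Psmb8 lost its call without any of 4 libraries (adjusted p up to 0.121). Of 17 costimulation and checkpoint genes 7 rose and 6 fell, against the same shares of all genes. Cd86, a ligand that costimulates T cells, had 85.6, 83.0 and 65.7 CPM with MSA2, 127, 143 and 86.4 CPM in the combination and 154, 131 and 108 CPM in Control (-0.75 ± 0.18 SE, edgeR adjusted p = 0.00666). Relative to the identity genes Cd86 had no call (0.23 ± 0.205 SE, edgeR adjusted p = 0.308). Its counterpart Cd80 rose (1.75 ± 0.31 SE, edgeR adjusted p = 0.000797). Cd274, the gene of PD-L1, had 141, 162 and 129 CPM with MSA2, 219, 216 and 218 CPM in the combination and 146, 152 and 177 CPM in Control (-0.13 ± 0.10 SE, edgeR adjusted p = 0.305). Ctla4 (3.68 ± 0.10 SE), an inhibitory receptor of T cells, rose too, as did the T cell list. Which cells the rise of Ctla4 came from was not tested.

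Of 19 PI3K genes tested 6 rose, 4 fell and 9 had no call, which is near the shares of all genes (24.8% higher and 18.5% lower), and without MSA2 replicate 2 7 fell. Pik3cg, the catalytic subunit that IPI-549 inhibits, had 66.8, 72.7 and 53.6 CPM with MSA2, 73.6, 74.8 and 61.5 CPM in the combination and 76.0, 74.1 and 79.2 CPM in Control (-0.25 ± 0.11 SE, edgeR adjusted p = 0.0979, and 0.0348 without MSA2 replicate 2). Its regulatory subunit gene Pik3r5 had 66.3, 66.4 and 63.8 CPM with MSA2, against 23.8, 22.1 and 21.5 CPM in Control (1.54 ± 0.07 SE, edgeR adjusted p = 2.95e-08). Pik3ap1, an adaptor that couples the B cell receptor to PI3K, fell (-1.05 ± 0.14 SE). Myeloid cells and T cells also express Pik3r5, and their lists were high in the MSA2 libraries. Their part in its rise was not tested.

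Stress and cell death genes included strong risers at high level. Ppp1r15a, which restores translation after stress, had 1721, 1442 and 2677 CPM with MSA2, 2097, 2016 and 3191 CPM in the combination and 255, 259 and 268 CPM in Control (2.90 ± 0.24 SE, edgeR adjusted p = 2.31e-06). Of 18 integrated and ER stress genes 9 rose and 1 fell (median 0.47). The 1 that fell, Herpud1, lost its call without any of 4 libraries (adjusted p up to 0.0740), while 2 fell without MSA2 replicate 3 or Control replicate 1. Atf4 (0.01 ± 0.25 SE) and Ddit3 (0.01 ± 0.28 SE), the usual factors upstream, had no call. Of 21 p53 and apoptosis genes 8 rose and 4 fell, 2 without Control replicate 2, against 24.8% higher and 18.5% lower of all genes. Pmaip1, the death protein NOXA, had 410, 353 and 379 CPM with MSA2, 838, 801 and 721 CPM in the combination and 126, 123 and 136 CPM in Control (1.57 ± 0.09 SE, edgeR adjusted p = 1.41e-07). Bbc3, the death protein PUMA, rose by 0.92 ± 0.11 SE, and its 77.3 CPM in the combination stood above 33.3 CPM with MSA2 and 17.6 CPM in Control.

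Of 18 immediate early genes 7 rose and 6 fell, against 24.8% higher and 18.5% lower of all genes. The counts rested on single libraries, with 4 risers without MSA2 replicate 3 or Control replicate 1 and 3 fallers without Control replicate 2 or 3. Fosl2, a subunit of the factor AP-1, had 459, 542 and 636 CPM with MSA2, 88.2, 95.7 and 109 CPM in the combination and 109, 121 and 120 CPM in Control (2.23 ± 0.12 SE, edgeR adjusted p = 1.04e-07). Nr4a1, which B cell receptor signals induce, had 1363, 1612 and 1652 CPM with MSA2, against 2056, 3312 and 2623 CPM in Control (-0.79 ± 0.16 SE, edgeR adjusted p = 0.00183). Of 24 cell cycle genes 12 rose and 0 fell, and 7 rose without Control replicate 1 or 2. Mki67, a marker of dividing cells, had 86.9, 120 and 87.2 CPM with MSA2, against 36.3, 34.2 and 59.8 CPM in Control (1.18 ± 0.21 SE, edgeR adjusted p = 0.000819).

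Of 27 cytosolic ribosomal protein genes 18 fell and 0 rose (median -0.41), but 6 fell without Control replicate 1, 7 without Control replicate 2 and 10 when the MSA2 and Control libraries were fitted alone. The summed level was 31100 to 46440 CPM with MSA2, lowest in replicate 2, and 51500 to 54040 CPM in Control. Of 13 genes of the mitochondrial genome 6 rose, and 2 rose without Control replicate 2 or 3, the libraries with the lowest sums. Of 18 cholesterol synthesis genes 9 fell and 1 rose. Relative to the identity genes 17 of these 18 were higher and 0 lower, and 26 of the 27 ribosomal genes were higher and 0 lower. Of all genes 84.6% were higher on that scale. Hmgcs1, an early enzyme of cholesterol synthesis, had 80.2, 71.9 and 75.6 CPM with MSA2, against 120, 128 and 130 CPM in Control (-0.73 ± 0.07 SE, edgeR adjusted p = 6.75e-06). Relative to the identity genes it was higher (0.24 ± 0.07 SE, edgeR adjusted p = 0.0077). The cholesterol synthesis gene that rose in the main fit was Dhcr7 (0.42 ± 0.12 SE). Its call was lost without MSA2 replicate 3 or Control replicate 2, while 2 rose without MSA2 replicate 1. Of 17 glycolysis genes 9 rose and 0 fell, led by the myeloid hexokinase gene Hk3 (3.98 ± 0.25 SE) and the lactate carrier gene Slc16a3 (5.71 ± 0.29 SE).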

How the data were processed

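RNA was taken with a column kit, Illumina libraries were made, and the deposited table holds expected counts per gene for 9 B cell libraries, per the labels. Per the submitters' processing notes, the tools were cutadapt 4.8, FastQC 0.11.8, STAR 2.7.8a, RSEM 1.3.3 and MultiQC 1.20, with the mouse build GRCm38. Strand and annotation release are not given in the sources used here. All deposited values (100%) were whole numbers, so the expected counts needed no rounding. Totals ran from 41090638 to 51429550 per library, the table had 55491 rows, and 4 transgene rows were left out of tests.

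From these the log2 CPM and all tests were computed. Genes were filtered with filterByExpr, scaled with TMM factors and tested with edgeR 4.0.16's quasi-likelihood test in R 4.3.3 (limma 3.58.1), with 1 model over the 9 libraries, 1 term per group and Benjamini-Hochberg adjustment over 16194 genes. DESeq2 1.42.0 was an alternative. A second fit used library factors from the mean log2 CPM of 12 B cell identity genes, which were then not tested. The edgeR fit, with TMM and with B cell marker factors, was tested on simulated counts with far fewer changed genes than were called here. The other steps were not tested on simulated data. Bounds for genes with no Control counts set Control to 3 counts over the group and, like CPM, cover counting error only.

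The members and gene lists were chosen with earlier results of these data known. The rule for named genes took, with at least 5 CPM, no overlap and an established symbol, the 10 largest called changes in each direction among genes B cells can express, the 6 largest rises among other genes, and the 8 largest falls in the second fit. It also took up to 4 genes per list with those called against their list, and a set of key genes. Genes outside the rule were picked with their values in view. The alternatives tried were other scalings and filters, DESeq2, the MSA2 and Control libraries alone, a replicate block, other definitions of the class and each library left out. No library pair of a group agreed within counting noise. Gene positions are those of GENCODE on GRCm38, and windows upstream of genes come from RefSeq.
A few items are not reported here.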

Additional observations from a re-analysis of the deposited data

How the results depend on the processing

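No result changed direction under any alternative run of its own fit. The fit scaled to B cell markers is a separate one, and there genes such as Hmgcs1, lower in the main fit, were higher. The number of genes called was 7014, and 6926 with DESeq2's size factors in edgeR, 7157 with upper quartile factors, 7417 with no filter, 6118 with a stricter filter, 7123 with DESeq2 and 6598 with the MSA2 and Control libraries alone. Leaving out 1 library gave 5878 to 6810 genes. Among genes B cells can express 4128 were called, 3164 to 3961 with 1 library left out, and 5041, 2898 and 4156 with the class set at 1 CPM, at 20 CPM or at 5 CPM in Control. The scaling to B cell markers gave 13743 calls, 13191 to 13936 with 1 library left out. Of these 47 were lower, 33 to 62 with 1 library left out, 47 with factors from summed counts and 112 with factors from the follicular list, the cause of which was not tested. The replicate numbers did not pair the MSA2 with the Control libraries by the rule used, since the correlations of same-numbered ones were -0.03, 0.01 and 0.12, and pairing with the combination was not tested. With a replicate block 7432 genes were called, 4559 of them genes B cells can express, and 13786 on the B cell marker scale, of which 65 were lower. Under the block 2 germinal centre genes rose, and 5 genes of the STING list and 2 of the stress list fell. Over all genes that the lists or the rule name, a call was lost in 75 cases with 1 library left out and in 11 under other settings, and gained in 1. The depth limits values near 0, where 3 counts over the Control libraries set the smallest level.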

Other observations

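The genes below were picked out only after their values were seen, from the 28 genes of the B cell class that were lower relative to the identity genes. B3gnt5, which starts a class of glycolipids, had 189, 176 and 150 CPM with MSA2, 373 CPM on average in the combination and 517, 465 and 448 CPM in Control (relative to the identity genes -0.50, edgeR adjusted p = 0.00346). B3gnt8 had 5.30, 5.69 and 5.27 CPM with MSA2, against 15.3, 16.0 and 14.4 CPM in Control (relative to the identity genes -0.51, edgeR adjusted p = 0.00108). Every MSA2 library lay below every Control library for both. Sfn, which encodes the adaptor protein 14-3-3 sigma, had 38.7, 32.4 and 37.1 CPM with MSA2, 55.4 CPM on average in the combination and 107, 115 and 104 CPM in Control (relative to the identity genes -0.62, edgeR adjusted p = 5.39e-05).

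Further interferon genes had no count in Control. Ifnl2, the gene of a type III interferon, had 73 counts over the 3 MSA2 libraries, 6 over the combination and 0 over Control, at least 25.1-fold higher with MSA2. Ifna2 had 757 counts with MSA2, 417 in the combination and 0 in Control, at least 261-fold higher with MSA2.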
